A study of Macaca fascicularis with 9 samples.

Results

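The Rab GTPases and endosomal sorting genes described here are the features whose symbol begins with RAB, VPS, SNX, CHMP or EHD followed by a digit, or names a subunit of the adaptor complexes AP-1 to AP-4 in the series B, D, E, G, M or S. They numbered 147 of 29128 features: 61 RAB, 28 VPS, 26 SNX, 8 CHMP, 4 EHD and 20 AP symbols. The rule uses symbols, not measured values. Of the 172 RefSeq gene symbols that fit the same patterns, 27 had no feature of that symbol, among them RAB5A, RAB11B, VPS33A and VPS4A, and were not analysed here. The nuclei came from thalamus of 9 female cynomolgus monkeys in 3 groups of 3. Saline animals received 4 intravenous doses of saline. ASO animals received 1 intrathecal dose of 4 mg of an antisense oligonucleotide against MALAT1, a long noncoding RNA retained in the nucleus. OTV animals were given OTV:MALAT1 intravenously, 4 times at 30 mpk, a MALAT1 oligonucleotide on a carrier that binds the transferrin receptor. Tissue was collected 2 weeks after the last dose in every group. No animals received saline by the intrathecal route, so the ASO and saline groups differed in the injection as well as in the drug.

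Rab GTPases switch between a GDP-bound and a GTP-bound form and, when active, recruit effectors that move, tether and fuse vesicles. RAB5 proteins mark early endosomes, RAB4 and RAB11 proteins recycling routes, and RAB7 proteins late endosomes and lysosomes. Cargo is lifted out of endosomes by retromer and sorting nexins, sorted into coats by the adaptor complexes, folded into internal vesicles by the ESCRT machinery with its CHMP subunits, and handed to lysosomes by the HOPS tether. Oligonucleotides that enter a cell by endocytosis must cross this system before they reach their target RNA.

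The matrix held 79994 nuclei, with 20.0 to 98.9 M UMIs (transcripts counted once each by a molecular tag) per animal. The median per nucleus was 2579 UMIs in OTV replicate 3 and 4741.5 to 7791 in the other 8 animals. Of 79232 distinct barcodes, 760 (0.959%) occurred in 2 or more animals. MALAT1, the targeted RNA, took 6.42%, 6.87% and 6.48% of oligodendrocyte UMIs in the saline animals, 4.73%, 4.22% and 5.71% after ASO and 3.95%, 3.47% and 3.03% after OTV, with no overlap between groups (two-sided exact permutation test over the 3 groups, p = 0.00357, the smallest possible). The same exact test gave p = 0.0679 in myeloid nuclei, 0.0607 in OPCs, 0.143 in astrocytes and 0.0786 in neurons. In these 4 types every OTV animal lay below every saline animal, and the ASO animals overlapped with one or both of the other groups. After OTV, MALAT1 stood at 52.8% of the saline mean in oligodendrocytes and 55.8% in myeloid nuclei, below called the types of strong loss. It stood at 71.9% in oligodendrocyte precursor cells (OPCs) and 68.2% in astrocytes, the types of weak loss. ASO left 74.2%, 68.4%, 90.5% and 95.6% in these 4 types. The neuron class, at 44.9% of saline after OTV and 88.4% after ASO, had the lowest share of MALAT1 left after OTV and is in neither set. A score of regional astrocyte genes (mean log2 CPM of 4 genes minus that of 3 others) was below 0 in saline replicates 1 and 3 and ASO replicate 3, at -1.63, -4.75 and -5.33, and between 1.28 and 3.41 in the other 6 animals, all 3 OTV animals among them. In the neuron class 6 thalamic neuron markers summed to 1695 to 2606 CPM (the count of a gene scaled to a common library total) in saline, 1248 to 2477 in ASO and 3835 to 4861 in OTV animals, so every OTV animal lay above all others. The same 6 genes summed to 4010 to 8211 CPM in saline astrocytes and 2463 to 2773 in saline OPCs, so their sum is not particular to neurons. One of the 6, SLC17A6, was at 82.9 CPM in saline replicate 2 and at most 33.3 in the other animals, and GBX2 was at 0 in 7 animals and below 1 CPM in the others. PDE10A, a gene of striatal neurons, stood at 1999, 6511, 4383 and 1234 CPM in saline replicates 1 and 3 and ASO replicates 3 and 2, and at 254 to 503 in the other 5 animals. The neuron class held 17 to 527 nuclei per animal and carried FLT1, an endothelial gene, at 821, 741 and 303 CPM in ASO replicate 1, OTV replicate 1 and saline replicate 2, so its values are given only beside those of the 4 glial types.

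Levels were described as CPM of the UMIs summed per animal and cell type, with the cell types as the authors named them. No test was made between types, because the types were themselves named from expression. In the saline animals 69 of the 147 genes had their highest mean in myeloid nuclei, 28 in neurons, 23 in oligodendrocytes, 14 in astrocytes and 13 in OPCs. For 43 of the 69 in myeloid nuclei, every saline animal lay above every saline animal of the next type. The share of all features with a myeloid peak that lay apart in this way was not counted, so the 43 cannot be called many. Among the 100 genes with at least 20 CPM in some type, 53 (53.0%) peaked in myeloid nuclei, compared with 34.8% of all 9791 features above that level. Of the 100, 21 (21.0%) exceeded the next type by a factor of 2 or more, against 33.4% of those features. By role, 4 of 5 early endosome Rabs, 7 of 11 recycling and basolateral Rabs and 5 of 6 HOPS and CORVET subunits peaked in myeloid nuclei. These counts by role, like the 69 of 147, set no lowest level. The 7 include RAB25, RAB14 and RAB35 at saline means of 0.0933, 5.18 and 10.6 CPM, each overlapping with the next type. Of the 9 secretory Rabs, 6 peaked in neurons, with no lowest level set here either. Among them RAB26 did not overlap with the next type. RAB27B (85.1 CPM against 78.6 in OPCs) and RAB3A (21.4 against 15.4 in myeloid nuclei) did.

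The myeloid leaders were RAB37, RAB3IL1 and AP1B1. RAB37, a Rab linked to regulated secretion, stood at 110, 62.1 and 37.8 CPM in myeloid nuclei of the 3 saline animals and at 2.75 to 4.89 in OPCs, the next type. RAB3IL1, an exchange factor for RAB3 and RAB8 proteins, stood at 28.3, 35.9 and 38.5 CPM in myeloid nuclei, which was 15.3 times the mean of the next type. AP1B1, the beta subunit of the AP-1 coat of the trans-Golgi network, stood at 728, 742 and 1200 CPM in myeloid nuclei and at 62.0 to 63.5 in astrocytes. All 9 animals of the study, treated or not, had more of each of these 3 genes in myeloid nuclei than in the type that came next in saline. In the neuron class of OTV replicates 1 and 3, however, RAB37 stood above the myeloid level of the same animals. Among the saline animals RAB37 varied widely in myeloid nuclei, whereas RAB3IL1 varied little.

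Oligodendrocytes were led by SNX31, RAB33A and VPS50. SNX31, a sorting nexin of the SNX17 family, stood at 152, 55.6 and 51.3 CPM in oligodendrocytes and at most 12.2 in any other type. Its 3 saline values were uneven, with replicate 1 far above the other two. RAB33A, a Golgi-associated Rab, stood at 33.5, 27.4 and 31.3 CPM, 3.68 times its mean in OPCs. VPS50, the subunit that distinguishes the endosomal EARP tether from GARP, stood at 275, 331 and 180 CPM against 97.3 to 107 in OPCs. OPCs were led by EHD3, an ATPase that shapes recycling tubules, at 74.7, 77.0 and 75.9 CPM against 5.14 to 6.05 in oligodendrocytes, their descendants. RAB38, known for the biogenesis of lysosome-related organelles, stood at 24.7, 22.5 and 59.1 CPM in OPCs and 12.1, 21.8 and 3.84 in astrocytes. SNX25 stood at 222, 253 and 218 CPM in OPCs, 1.84 times its neuronal mean, and at 8.08 to 13.8 CPM in oligodendrocytes. EHD3 and SNX25 thus separated the precursor from the mature oligodendrocyte in every saline animal.

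Astrocytes were led by RAB34, RAB30 and RAB11FIP2, at 2.13, 1.68 and 1.27 times the mean of the next type. RAB30, a Golgi Rab, stood at 328, 339 and 271 CPM in astrocytes, 213, 228 and 119 in oligodendrocytes, 94.5, 97.7 and 80.0 in OPCs and 7.28, 8.71 and 23.2 in myeloid nuclei. RAB34 and RAB11FIP2 overlapped between astrocytes and neurons. In the neuron class RAB15, a Rab of the early and recycling endosome, stood at 21.1, 22.3 and 24.5 CPM, and SNX32, a brain-enriched relative of SNX5 and SNX6, at 135, 102 and 107 CPM, 1.95 times its OPC mean. RAB11FIP1 stood at 12.2, 44.7 and 5.91 CPM in the neuron class of saline replicates 1 to 3, and over all 9 animals its 3 highest values (44.7, 41.7 and 63.6) were those of the animals with the most FLT1. The part of endothelial RNA in that level was not tested.

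**Figure D1:**
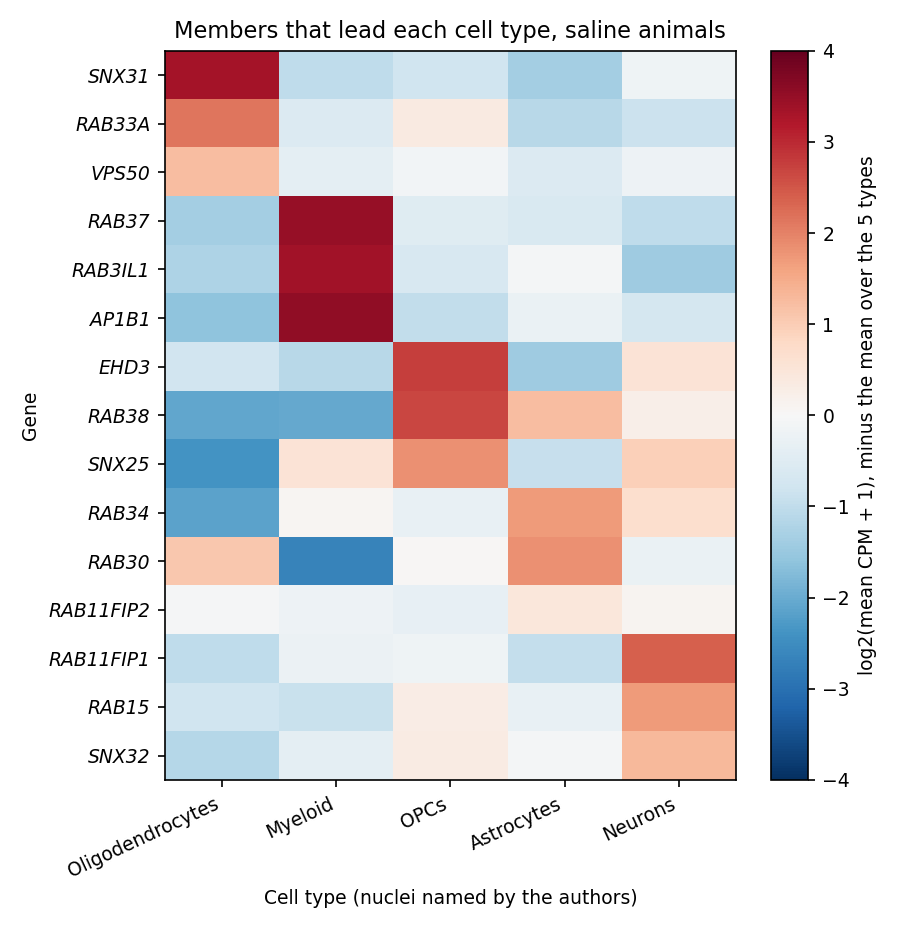
Heat map of the 15 genes that lead the 5 cell types in saline animals. Rows are genes, columns are cell types, and colour gives the log2 of mean CPM plus 1 (n = 3 animals) minus the mean of that gene over the 5 types. RAB37, RAB3IL1 and AP1B1 are strongest in the myeloid column, while RAB11FIP2, 1.27 times as high in astrocytes as in the next type, is nearly flat across its row.

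OTV against saline was compared first, with edgeR's quasi-likelihood test on the summed counts of all 9 animals and Benjamini-Hochberg adjustment over all genes tested in a type. Calls below mean an adjusted p under 0.05. In oligodendrocytes 13 of 142 tested members were called higher and 5 lower (9.15% and 3.52%), beside 7.52% and 11.7% of all genes tested. In myeloid nuclei 9 of 124 were higher and 5 lower (7.26% and 4.03%), beside 4.76% and 7.26%. In OPCs 17 of 135 were higher and 8 lower (12.6% and 5.93%), beside 10.2% and 11.9%. In astrocytes 10 of 122 were higher and 2 lower (8.20% and 1.64%), beside 6.27% and 9.12%. Over all nuclei 10 of 143 were higher and 2 lower, beside 5.72% and 9.94%. The share of members called higher lay slightly above that of all genes in each of the 4 types, and the share called lower lay below it in each. The genes tested were not limited to those with a symbol, which 14235 of the 29128 features lack, whereas every member has one. Shares among genes with a symbol were not computed, so this difference cannot be read as particular to the members. The types came from the same 9 animals, so these are not 4 separate experiments. In any of the 4 types 42 of 142 members were called (29.6%), beside 29.9% of all genes. Of the 42, 28 were higher and 14 lower (beside 12.5% and 17.6% of all genes), and none was called in both directions. Of the 142 members 114 were tested in all 4 types, but only 11324 of the 20588 genes. Members thus had more chances of a call, and shares counted over the 4 types are not on equal terms. The members' median log2 fold change was 0.09, 0.01, 0.06 and 0.07 in oligodendrocytes, myeloid nuclei, OPCs and astrocytes, and that of all genes -0.02, -0.03, -0.01 and -0.02. In sums over the nuclei of a type, fewer nuclei that express a gene and less RNA per nucleus cannot be told apart.

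Marker levels of several cell types also differed between the groups within these types. In OPCs 7 oligodendrocyte markers summed to 407 to 660 CPM in saline, 846 to 1128 in ASO and 769 to 1112 in OTV animals. The 6 OPC markers stood at 12935 to 13167, 13141 to 14478 and 9810 to 11140 CPM there, and 7 neuronal markers at 1029 to 1317, 1096 to 1296 and 775 to 911. In myeloid nuclei the 7 astrocyte markers summed to 1901 to 2553 CPM in saline, 785 to 1214 in ASO and 699 to 1625 in OTV, the 7 oligodendrocyte markers to 759 to 914, 958 to 1548 and 1094 to 1727, and the 7 myeloid markers to 5522 to 6285, 5428 to 6308 and 4321 to 5198. In astrocytes the oligodendrocyte markers summed to 362 to 434, 463 to 729 and 484 to 767 CPM. The OTV and saline animals did not overlap in any of these sums, none of the markers was at 0, and their part in the results of these types was not tested. In oligodendrocytes the marker sums of these 5 cell types overlapped between OTV and saline. The 5 lymphocyte markers summed lower in every OTV than in every saline animal in each of the 4 types, for example 23.9 to 34.9 against 45.8 to 87.3 CPM in myeloid nuclei. The 4 mural markers were higher without overlap in OTV oligodendrocytes and lower in OTV astrocytes, and the 3 ependymal markers higher in OTV myeloid nuclei.

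**Figure D2:**
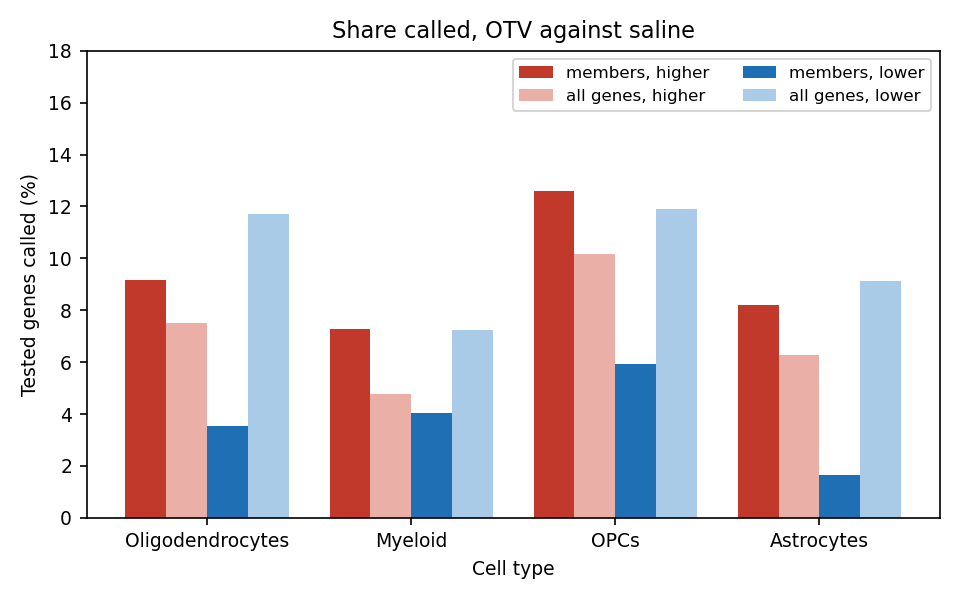
Bars give the percentage of tested genes called for OTV against saline by edgeR (adjusted p under 0.05) in the 4 cell types, for the endosomal genes and for all genes tested. In each type the dark red bar (members, higher) stands above the pale red bar and the dark blue bar (members, lower) below the pale blue bar, with the lowest in astrocytes at 1.64%.

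Of the members, 7 were called higher in at least 3 of the 4 types (4.93% of 142, beside 2.76% of all genes). Only 1 was called lower (0.704%, beside 3.83%). A larger part of the members than of all genes was tested in all 4 types, so these shares are not on equal terms. AP3D1, the delta subunit of the AP-3 coat that carries cargo from endosomes to lysosomes and related organelles, was called higher in all 4 types and in neurons. Its oligodendrocyte level was 48.4, 50.7 and 50.2 CPM in saline, 55.6, 49.7 and 49.4 in ASO and 92.4, 105 and 156 in OTV animals. The saline and ASO animals were tightly grouped, and all 3 OTV animals lay well above them. The log2 fold change in oligodendrocytes was 1.28 (SE 0.16, edgeR adjusted p = 0.0012). In myeloid nuclei AP3D1 stood at 78.6, 84.2 and 87.6 CPM in saline and 131, 225 and 230 in OTV, a log2 fold change of 1.16 (SE 0.20, edgeR adjusted p = 0.00551). In OPCs it stood at 50.7, 49.4 and 51.7 against 92.2, 132 and 187 CPM, a log2 fold change of 1.47 (SE 0.20, edgeR adjusted p = 0.000687). Astrocytes gave the largest change of the 4 types, from 64.0, 81.1 and 67.0 to 156, 250 and 269 CPM, a log2 fold change of 1.69 (SE 0.20, edgeR adjusted p = 0.00131). In each of the 4 types OTV replicate 1 was the lowest of its group and replicate 3 the highest, and OTV replicate 3 also had the lowest median of UMIs per nucleus. AP3D1 kept its call in the 4 glial types without any single animal, with a term for the regional score, after thinning to equal totals and in the largest cluster of each type.

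VPS16, a core subunit of the HOPS and CORVET tethers, had few UMIs but a clear difference. In oligodendrocytes it stood at 3.38, 3.03 and 2.71 CPM in saline, 2.36, 2.79 and 3.12 in ASO and 8.44, 7.75 and 9.09 in OTV. The 3 OTV animals lay close together, with no overlap, and the log2 fold change was 1.5 (SE 0.20, edgeR adjusted p = 0.00151). VPS16 also rose in OPCs, by a log2 of 1.83 (SE 0.35, edgeR adjusted p = 0.00359), and in myeloid nuclei, by 1.57 (SE 0.38, edgeR adjusted p = 0.0244). The myeloid values rested on 4 to 45 UMIs per animal, and that call was lost without saline replicate 1, OTV replicate 2 or OTV replicate 3 (highest edgeR adjusted p = 0.0839). In astrocytes the values were 4.68, 2.79 and 2.75 in saline and 9.22, 3.55 and 6.94 CPM in OTV, which overlapped (log2 fold change 1.11, edgeR adjusted p = 0.104).

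RAB40C, a Rab that acts as a substrate receptor of a cullin ubiquitin ligase, was called higher in all 4 types by smaller amounts. In myeloid nuclei it stood at 19.0, 22.7 and 17.9 CPM in saline, 21.3, 19.0 and 19.2 in ASO and 36.7, 39.4 and 42.5 in OTV. The OTV animals were about double the others there, with a log2 fold change of 0.92 (SE 0.18, edgeR adjusted p = 0.0104). The log2 fold changes in oligodendrocytes, OPCs and astrocytes were 0.61, 0.94 and 0.79. RAB40C kept its calls in myeloid nuclei and OPCs without any single animal. In oligodendrocytes and astrocytes its calls were lost without saline replicate 1 or 2, ASO replicate 1 or OTV replicate 2 or 3 (highest edgeR adjusted p = 0.109 and 0.137), in astrocytes also without saline replicate 3 or OTV replicate 1. After thinning to equal totals RAB40C was called in none of the 4 types (edgeR adjusted p = 0.0609 in OPCs to 0.156 in oligodendrocytes).

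RAB11FIP3, SNX32, VPS13C and SNX6 completed the group. RAB11FIP3, which binds RAB11 and ARF6 on recycling endosomes, stood at 38.6, 40.3 and 41.7 CPM in saline astrocytes and 72.5, 67.4 and 67.4 in OTV, a log2 fold change of 0.82 (SE 0.17, edgeR adjusted p = 0.0114). ASO astrocytes were spread between 41.1 and 58.4 CPM, above most of the saline animals but below every OTV animal. SNX32 in OPCs stood at 56.6, 58.0 and 61.6 CPM in saline, 53.6, 53.5 and 53.5 in ASO and 86.1, 103 and 94.5 in OTV, a log2 fold change of 0.73 (SE 0.11, edgeR adjusted p = 0.000938). Its OTV values did not overlap with the others in OPCs, astrocytes or oligodendrocytes. In myeloid nuclei they did, at 41.4, 38.5 and 69.0 against 30.5 to 39.0 CPM in saline, and SNX32 was not called there. Its oligodendrocyte call was lost without saline replicate 1 or 2 or OTV replicate 3 (highest edgeR adjusted p = 0.0768). RAB11FIP3 was lost without saline replicate 1 in oligodendrocytes (edgeR adjusted p = 0.0507) and without saline replicate 1 or OTV replicate 2 in OPCs (highest 0.0541). VPS13C, which transfers lipids between late endosomes and the endoplasmic reticulum, rose by 0.38, 0.53 and 0.67 on the log2 scale in oligodendrocytes, OPCs and astrocytes. SNX6, the retromer-associated nexin, rose by 0.49, 0.44 and 0.70 in OPCs, myeloid nuclei and astrocytes and missed the threshold in oligodendrocytes (0.41, edgeR adjusted p = 0.0501). VPS13C and SNX6 held in OPCs without any single animal, but each lost its calls in the other types without saline replicate 1 or 2 or OTV replicate 3, among other animals (highest edgeR adjusted p = 0.116 for VPS13C and 0.133 for SNX6).

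VPS54, the subunit that distinguishes the GARP tether of the trans-Golgi network, was the 1 member called lower in at least 3 types, and it was called in all 4. In myeloid nuclei it stood at 196, 213 and 245 CPM in saline, 260, 256 and 259 in ASO and 142, 176 and 130 in OTV. The OTV animals lay below all others and the ASO animals above the saline animals. The log2 fold change was -0.59 in myeloid nuclei (SE 0.13, edgeR adjusted p = 0.0179), -0.49 in OPCs (SE 0.11, edgeR adjusted p = 0.0113), -0.30 in oligodendrocytes and -0.49 in astrocytes. The OPC call held without any single animal and with the term for the regional score. In myeloid nuclei it was lost without OTV replicate 1 or 3 (highest edgeR adjusted p = 0.062), in oligodendrocytes without any of 6 animals (highest 0.113) and in astrocytes without any of the 9 (highest 0.132). VPS53, a subunit found in both GARP and EARP, moved the other way: it rose by 0.64 in oligodendrocytes and 0.74 in astrocytes on the log2 scale, while VPS50 was called in no type. The astrocyte call of VPS53 held without any single animal, and its oligodendrocyte call was lost without saline replicate 1 (edgeR adjusted p = 0.061) and with the term for the regional score (0.0657). So of the 3 tether subunits measured, 1 rose, 1 fell and 1 did not pass.

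**Figure D3:**
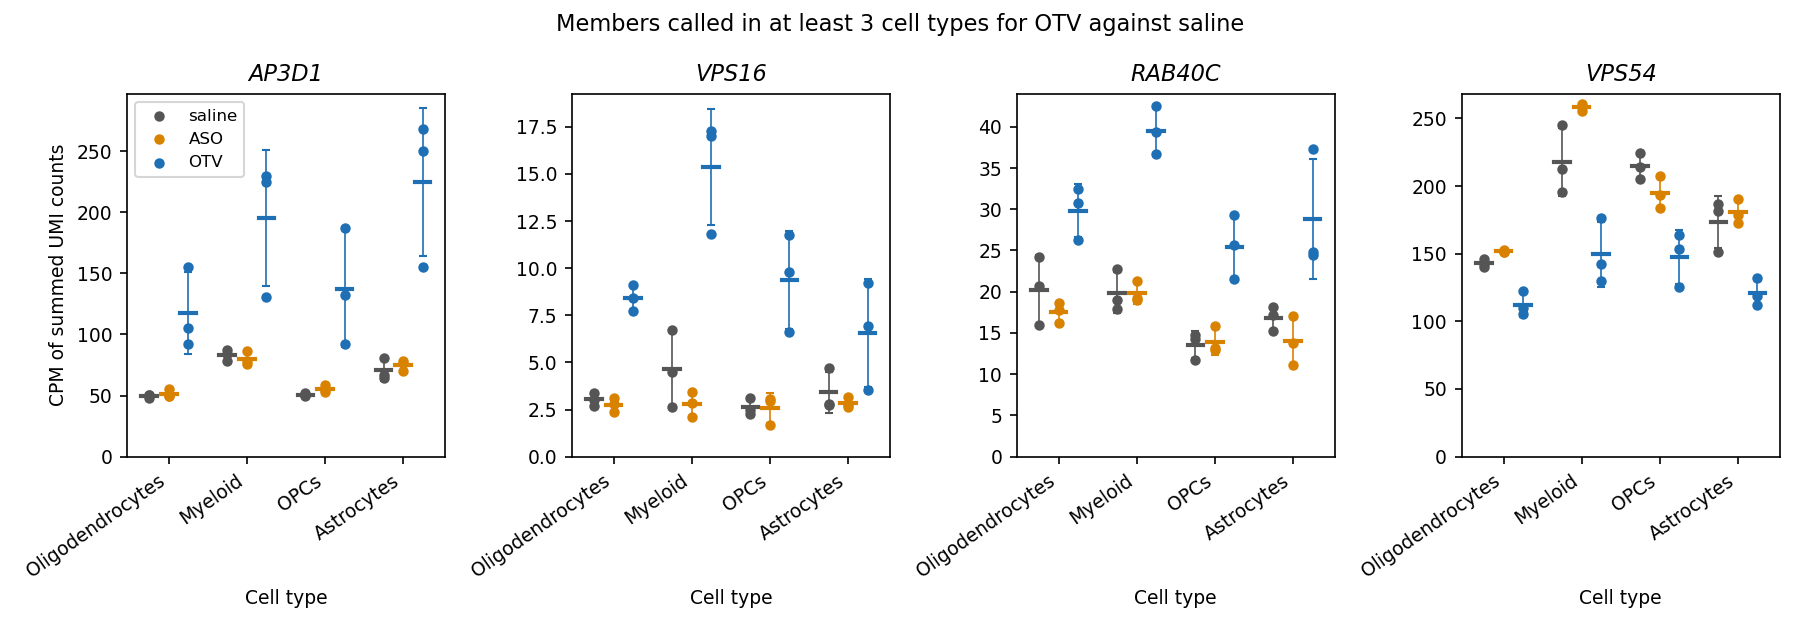
CPM of summed UMI counts in each animal for AP3D1, VPS16, RAB40C and VPS54 in 4 cell types. Points are animals coloured by group, thick lines are means and error bars are SD (n = 3). OTV points lie above the saline and ASO points for the first 3 genes, apart from VPS16 in astrocytes where the lowest OTV animal is at 3.55 CPM, and below them for VPS54.

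Of the 49 Rab GTPases tested in any of the 4 types, 9 rose and 4 fell, so 26.5% were called, beside the 29.9% of all genes given above. The roles below hold few genes each, and their counts stand beside 12.5% of all genes called higher and 17.6% called lower in any of the 4 types. None of the 5 early endosome Rabs and none of the 9 tested recycling and basolateral Rabs was called in any of the 4 types by edgeR. At an unadjusted p under 0.05 in some type there were 1 and 3, and the DESeq2 Wald test called 1 (RAB31) and 0. Of the 10 late endosome and lysosome Rabs, 2 rose and 2 fell. RAB7A, which drives late endosome transport, stood at 119, 139 and 122 CPM in saline OPCs and 152, 155 and 155 in OTV, a log2 fold change of 0.33 (SE 0.10, edgeR adjusted p = 0.0422). RAB36, a Rab of lysosome positioning, rose in astrocytes by 1.34 on the log2 scale, from 6.24, 4.94 and 1.65 to 8.97, 10.6 and 13.3 CPM. Both calls were lost without any 1 of the 9 animals (highest edgeR adjusted p = 0.169 and 0.158). RAB9A, which returns mannose 6-phosphate receptors to the Golgi, fell by 0.66 in OPCs on the log2 scale, a call lost without saline replicate 2 or OTV replicate 2 or 3 (highest edgeR adjusted p = 0.126). RAB38 fell by 1.40 in OPCs, from 24.7, 22.5 and 59.1 CPM in saline to 15.8, 11.1 and 10.1 in OTV, with the highest value in saline replicate 3. ASO OPCs held 20.2, 21.2 and 10.4 CPM of RAB38, and the ASO animal with the lowest regional score was the lowest of them. With the term for that score, RAB38 was not called (edgeR adjusted p = 0.165), nor without saline replicate 3, ASO replicate 1 or 2 or any OTV animal (highest 0.141).

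Among the 12 ER and Golgi Rabs tested 3 rose and 1 fell. RAB1B rose by 1.01 in OPCs, RAB6B by 0.81 in oligodendrocytes and RAB30 by 1.56 in myeloid nuclei, and RAB18 fell by 0.44 in OPCs. RAB1B was lost without saline replicate 2 or 3 or OTV replicate 1 or 2, RAB6B without saline replicate 1 or 3 or OTV replicate 1 or 3, and RAB18 without saline replicate 1 or 2 or OTV replicate 2 (highest edgeR adjusted p = 0.0876, 0.0914 and 0.0738). Of 9 secretory Rabs RAB3D rose in myeloid nuclei, where its log2 fold change of 1.99 (SE 0.51, edgeR adjusted p = 0.0307) rested on 2 to 38 UMIs per animal. RAB26 fell in oligodendrocytes, from 1.28, 1.37 and 2.09 to 0.611, 0.549 and 0.538 CPM. RAB3D was lost without saline replicate 1 or 2 or OTV replicate 3 (highest edgeR adjusted p = 0.118) and RAB26 without any of 7 animals (highest 0.0949). RAB40AL, a near copy of RAB40A and so of uncertain counting, rose in oligodendrocytes, and RAB28 rose in OPCs. RAB40AL was lost without saline replicate 2 or 3 or OTV replicate 3 and RAB28 without any saline animal or OTV replicate 2 or 3 (highest edgeR adjusted p = 0.118 and 0.111).

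Of the 9 Rab effectors and regulators tested, 4 rose and 1 fell, beside 12.5% and 17.6% of all genes, and RAB11FIP3, described above, is 1 of the 4. VPS9D1, a protein with the exchange domain that activates RAB5 family members, stood at 22.8, 25 and 24.6 CPM in saline oligodendrocytes, 43.4, 31.6 and 44.7 in ASO and 39.9, 46.1 and 53.6 in OTV. Both treated groups lay above saline, by a log2 of 0.68 for ASO (SE 0.15, edgeR adjusted p = 0.0953; DESeq2 adjusted p = 0.00882) and 0.99 for OTV (SE 0.15, edgeR adjusted p = 0.00212). For OTV against saline VPS9D1 was also called higher in OPCs. RAB11FIP4 rose in OPCs and astrocytes by 0.70 and 1.06. The OPC call held without any single animal, and the astrocyte call was lost without saline replicate 1 or 2 or OTV replicate 3 (highest edgeR adjusted p = 0.0814). RAB11FIP1 rose in myeloid nuclei, from 1.68, 1.97 and 3.98 to 7.08, 14.3 and 18.6 CPM, a log2 fold change of 2.34 (SE 0.68, edgeR adjusted p = 0.0492) on 4 to 27 UMIs per animal. That call was lost without any 1 of saline replicates 1 and 2, ASO replicate 3 and OTV replicates 2 and 3 (highest edgeR adjusted p = 0.159). In the same nuclei FLT1 stood at 2.52, 1.40 and 1.33 CPM in saline, 26.3, 20.1 and 13 in ASO and 12.3, 8.05 and 3.98 in OTV. The 4 endothelial markers measured, none at 0 in all 9 animals, summed to 470 to 708 CPM in saline, 765 to 891 in ASO and 185 to 741 in OTV. Their part in the RAB11FIP1 value was not tested. RAB11FIP2, whose product links RAB11 to myosin Vb, was the regulator that fell. It stood at 181, 138 and 230 CPM in saline astrocytes, 114, 149 and 222 in ASO and 102, 85.2 and 84.4 in OTV, a log2 fold change of -0.97 (SE 0.27, edgeR adjusted p = 0.0379). The 3 highest animals, saline replicates 1 and 3 and ASO replicate 3, were the 3 with a regional score below 0, and with a term for that score the change was -0.49 (edgeR adjusted p = 0.105). The astrocyte call was also lost without saline replicate 1 or 3, ASO replicate 2 or any OTV animal (highest edgeR adjusted p = 0.137). RAB11FIP2 also fell in OPCs, by 0.41 on the log2 scale, a call lost without saline replicate 2 or 3 or OTV replicate 2 or 3 (highest edgeR adjusted p = 0.113).

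Among the complexes, VPS18 of HOPS rose by 0.62 in oligodendrocytes, a call lost without any 1 of the 9 animals (highest edgeR adjusted p = 0.127). Retromer and retriever gave no rise and 2 falls among 6 subunits. VPS29, shared by both complexes, stood at 21.0, 23.9 and 22.0 CPM in saline OPCs, 27.1, 25.1 and 19.0 in ASO and 11.5, 11.1 and 14.4 in OTV. The OTV values lay below all others without overlap, and the log2 fold change of -0.82 (SE 0.20, edgeR adjusted p = 0.0118) held without any single animal and with the term for the regional score. VPS29 fell by the same 0.82 in myeloid nuclei, from 41.7, 48.0 and 39.8 to 32.5, 24.2 and 15.9 CPM, a call lost without saline replicate 1 or 2, any ASO animal or OTV replicate 2 or 3 (highest edgeR adjusted p = 0.149). VPS26C of retriever fell by 0.68 in myeloid nuclei, from 82.0, 95.5 and 64.4 to 50.1, 54.6 and 53.1 CPM without overlap, a call lost without saline replicate 1 or 2 or any OTV animal (highest edgeR adjusted p = 0.0943) and after thinning (0.0969). VPS35, VPS35L, VPS26A and VPS26B were called in no type by edgeR, and the DESeq2 Wald test called VPS26B.

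ESCRT genes were called in single types. VPS37D, an ESCRT-I subunit, stood at 1.64, 2.53 and 2.29 CPM in saline oligodendrocytes, 2.34, 2.11 and 3.02 in ASO and 0.815, 0.427 and 0.323 in OTV, a log2 fold change of -1.88 (SE 0.38, edgeR adjusted p = 0.0094). The OTV animals lay below all 6 others at 6 to 185 UMIs per animal, and the call was lost after thinning to equal totals (edgeR adjusted p = 0.0621) and in the largest oligodendrocyte cluster alone (0.0736). VPS37B rose by 0.65 in the same nuclei and VPS28 by 1.04 in myeloid nuclei, where it went from 17.3, 17.7 and 15.3 to 45.6, 26.0 and 34.5 CPM. VPS37B and VPS28 were lost without saline replicate 2 or OTV replicate 3, among other animals (highest edgeR adjusted p = 0.102 and 0.0837). CHMP1A rose in oligodendrocytes by 0.75 and CHMP4B in OPCs by 0.59, and none of the 8 tested ESCRT-III and VPS4 genes fell. VPS13D rose in OPCs by 0.31. CHMP1A was lost without any saline animal or OTV replicate 1 or 3, CHMP4B without saline replicate 1 or 3 or OTV replicate 2 or 3, and VPS13D without any saline animal, ASO replicate 1 or OTV replicate 2 or 3 (highest edgeR adjusted p = 0.0893, 0.0891 and 0.103). All 3 were also lost with the term for the regional score and after thinning.

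Among the 26 sorting nexins 4 rose and 1 fell (19.2% called, beside 29.9% of all genes). SNX22 showed the largest change of the family. In OPCs it stood at 39.7, 47.3 and 36.6 CPM in saline, 30.0, 30.6 and 34.7 in ASO and 110, 95.9 and 116 in OTV, a log2 fold change of 1.43 (SE 0.13, edgeR adjusted p = 6.39e-05). In myeloid nuclei it stood at 21.8, 36.5 and 19.9 against 92.5, 88.6 and 77.0 CPM, a log2 fold change of 1.66 (SE 0.23, edgeR adjusted p = 0.00187). Every OTV animal had at least 2 times the level of every saline animal in both types, and both calls held without any single animal, with the regional score and after thinning. OPC markers in myeloid nuclei (6 genes, none at 0) summed to 69 to 333 CPM in saline and 202 to 304 in OTV animals, and their part in the myeloid value was not tested. SNX29 rose in OPCs and astrocytes by 0.42 and 0.83, and SNX2 fell in OPCs by 0.31. SNX29 was lost in OPCs without saline replicate 1 or 2, any ASO animal or OTV replicate 2 or 3 (highest edgeR adjusted p = 0.185) and in astrocytes without saline replicate 2 or OTV replicate 1 or 3 (0.0551), and SNX2 without saline replicate 1 or 2 or OTV replicate 1 or 3 (0.0858). EHD1, which drives recycling to the plasma membrane, rose in OPCs from 8.15, 7.38 and 5.77 to 10.9, 17.8 and 13.9 CPM, a log2 fold change of 1.00 (SE 0.25, edgeR adjusted p = 0.016) that was lost without saline replicate 2 or OTV replicate 2 (highest edgeR adjusted p = 0.0702).

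Of the adaptor subunits that the symbol rule covers, none of the 3 AP-2 and 3 AP-4 genes was called in any of the 4 types by edgeR or the DESeq2 Wald test, with 1 and 0 at an unadjusted p under 0.05 in some type, and AP1S2, called lower in myeloid nuclei (log2 fold change -0.65, lost without saline replicate 1 or 2 or OTV replicate 2 or 3, highest edgeR adjusted p = 0.107), was the only one of 7 AP-1 genes. In AP-3 1 gene rose and 3 fell. AP3S1, a small subunit, fell by 0.46 in OPCs and 0.54 in myeloid nuclei, and AP3M1 by 0.32 in oligodendrocytes. The OPC call of AP3S1 was lost without any saline animal, ASO replicate 3 or OTV replicate 2 or 3 (highest edgeR adjusted p = 0.13). These small changes of AP3S1 in myeloid nuclei and of AP3M1 were lost without any 1 of the 9 animals (highest edgeR adjusted p = 0.11 and 0.118). AP3B2, the beta subunit of the neuronal form of AP-3, stood at 83.2, 56.6 and 54.8 CPM in saline oligodendrocytes, 90.9, 75.1 and 121 in ASO and 20.6, 18.2 and 14.6 in OTV. The lowest saline animal had over 2 times the level of the highest OTV animal, and the log2 fold change of -1.82 (SE 0.23, edgeR adjusted p = 0.00119) held without any single animal, with the regional score, after thinning and in the largest oligodendrocyte cluster alone. AP3D1 and AP3B2, both AP-3 subunits, therefore differed from saline in opposite directions in oligodendrocytes. AP3B1, the other beta subunit measured, had a saline mean of 309 CPM there and was called in none of the 4 types.

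Many of these calls ended under the other fits. In oligodendrocytes 7 of 18 were kept with the term for the regional score, 7 after thinning and 7 in the largest cluster. Those lost with the score term were RAB6B, RAB26, RAB40C, RAB40AL, VPS13C, VPS18, VPS37B, VPS53, VPS54, AP3M1 and CHMP1A. Thinning ended RAB6B, RAB40C, VPS13C, VPS18, VPS37B, VPS37D, AP3M1, SNX32 and CHMP1A and left RAB26 and RAB40AL too low to fit. The cluster alone ended RAB6B, RAB26, RAB40C, RAB40AL, RAB11FIP3, VPS13C, VPS18, VPS37B, VPS37D, VPS54 and AP3M1. In myeloid nuclei 8, 6 and 5 of 14 were kept in that order. The score term ended RAB3D, RAB11FIP1, SNX6, VPS16, VPS54 and AP3S1 there, and thinning RAB40C, VPS26C, VPS28, VPS54 and AP3S1, with RAB3D, RAB11FIP1 and VPS16 not fitted. The largest myeloid cluster alone ended RAB40C, SNX6, VPS16, VPS29, VPS54, AP1S2 and AP3S1, and RAB3D and RAB11FIP1 were not fitted in it. In OPCs 18, 17 and 18 of 25 were kept, with RAB1B and RAB7A lost in all 3 fits. VPS13D, RAB11FIP2 and CHMP4B were lost there with the score term and after thinning, and AP3S1 and RAB38 with the score term and in the cluster. SNX29 was lost in OPCs after thinning and in the cluster, RAB28 and RAB40C after thinning, and RAB9A and EHD1 in the cluster. In astrocytes 6, 8 and 10 of 12 were kept. The score term ended RAB11FIP2, RAB11FIP4, RAB36, RAB40C, VPS54 and SNX29 there, thinning SNX6, VPS54 and RAB40C, with RAB36 not fitted, and the cluster RAB36 and RAB40C.

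The next question was whether the change after OTV depended on how much MALAT1 was lost. The treatment effect in oligodendrocytes and myeloid nuclei was compared with that in OPCs and astrocytes in 1 edgeR fit with the animal as a block. None of the 136 members tested was called after Benjamini-Hochberg adjustment, and 20 (14.7%) had an unadjusted p under 0.05, beside 1.11% of genes called and 12.8% at the unadjusted level. No second tool was run on this comparison. The median difference was 0.04 on the log2 scale for the members and 0.05 for all genes. Over the 114 members tested in all 4 types, the median log2 fold change was 0.06 in the types of strong loss and 0.07 in those of weak loss. The size of MALAT1 loss and the identity of the cell cannot be told apart with 2 types on either side.

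**Figure D4:**
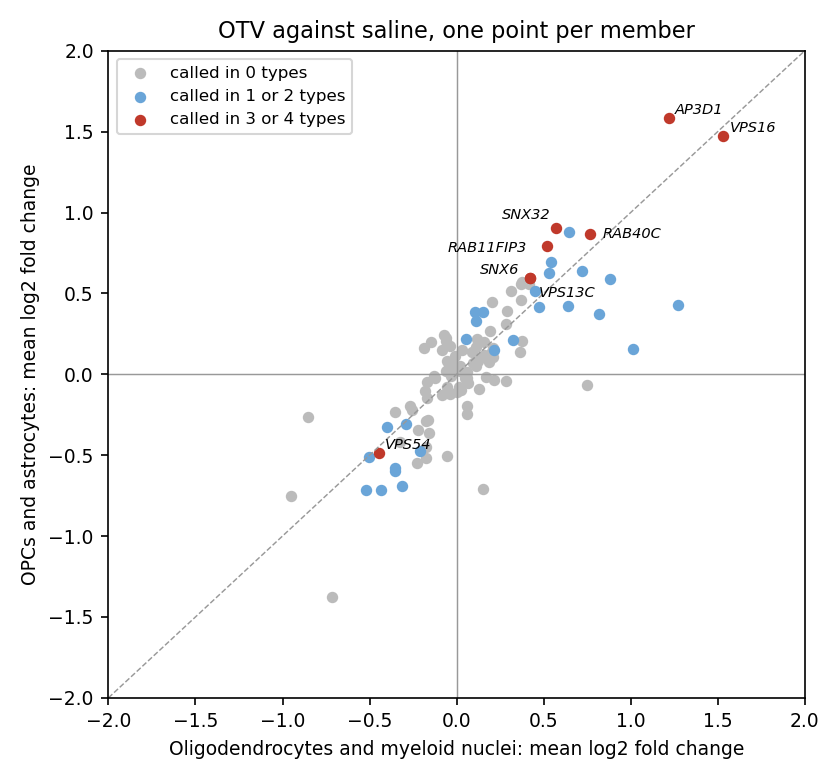
Log2 fold change for OTV against saline averaged over oligodendrocytes and myeloid nuclei (x axis) and over OPCs and astrocytes (y axis), 1 point for each of 114 members. Both axes use the same animals, the dashed line marks equal change, and colour gives the number of types in which a gene was called; AP3D1 and VPS16 lie farthest out near the line.

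The 4 members with the lowest p in that comparison differed in kind. RAB33B, a Golgi Rab with a role in autophagosome formation, came nearest to the threshold, with a difference of 0.89 (SE 0.22, edgeR adjusted p = 0.0517). In OPCs it stood at 10.8, 9.87 and 9.89 CPM in saline and 6.45, 7.11 and 5.34 in OTV, and in astrocytes at 8.59, 10.5 and 7.69 against 4.49, 5.32 and 5.49. The OTV animals lay below all saline animals in both types of weak loss. In oligodendrocytes it stood at 11.8, 13.1 and 10.0 against 10.2, 11.1 and 13.9 CPM and in myeloid nuclei at 8.39, 7.02 and 11.3 against 8.91, 11.6 and 13.3, with overlap in both. Within single types none of the 4 changes of RAB33B was called (edgeR adjusted p = 0.0538 in OPCs and 0.135 in astrocytes).

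AP3B2 followed with a difference of -1.27 (SE 0.35, edgeR adjusted p = 0.0827). Its fall was in oligodendrocytes, while its OPC level was 32.2, 37.8 and 39.9 CPM in saline and 50.9, 39.1 and 55.6 in OTV, and its neuronal level 95.0, 70.2 and 87.7 against 122, 139 and 206. Myeloid nuclei held under 7 CPM of AP3B2 in every animal, 2 to 11 UMIs each. The fit gives the 2 types of strong loss equal weight, so this uncertain myeloid value enters the difference as much as that of oligodendrocytes. With oligodendrocytes against astrocytes alone the difference was -2.37 (SE 0.33, edgeR adjusted p = 0.0264). AP3D1 had a difference of -0.33 (SE 0.10, edgeR adjusted p = 0.123), since its rise was larger in OPCs and astrocytes than in the types of strong loss.

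RAB30 had a difference of 0.91 (SE 0.27, edgeR adjusted p = 0.113). In myeloid nuclei it stood at 7.28, 8.71 and 23.2 CPM in saline, 13.8, 10.8 and 12.7 in ASO and 35.4, 30.4 and 47.8 in OTV, a log2 fold change of 1.56 (SE 0.40, edgeR adjusted p = 0.0305) that was lost without saline replicate 1 or 2 or any OTV animal (highest edgeR adjusted p = 0.111). Saline replicate 3 lay apart from its group. Without it the strong-against-weak difference was 1.14 (SE 0.18, edgeR adjusted p = 0.00109), and that of RAB33B 0.97 (edgeR adjusted p = 0.0369). Without any other single animal neither gene was called. The edgeR adjusted p was then 0.154 to 0.419 for RAB30 and 0.0661 to 0.223 for RAB33B. With oligodendrocytes against astrocytes alone, RAB30 had a difference of 0.43 (SE 0.24, edgeR adjusted p = 0.603). That of RAB33B was 0.81 (SE 0.31, edgeR adjusted p = 0.399). In astrocytes RAB30 stood at 328, 339 and 271 CPM in saline against 335, 339 and 288 in OTV, with full overlap. RAB30 is abundant in oligodendrocytes. The 7 oligodendrocyte markers, none at 0 in all 9 animals, summed to 759 to 914 CPM in saline, 958 to 1548 in ASO and 1094 to 1727 in OTV myeloid nuclei. RAB30 is higher still in astrocytes, whose markers, as given above, were lower in OTV than in saline myeloid nuclei. The part of RNA from either type in the RAB30 values was not tested.

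**Figure D5:**
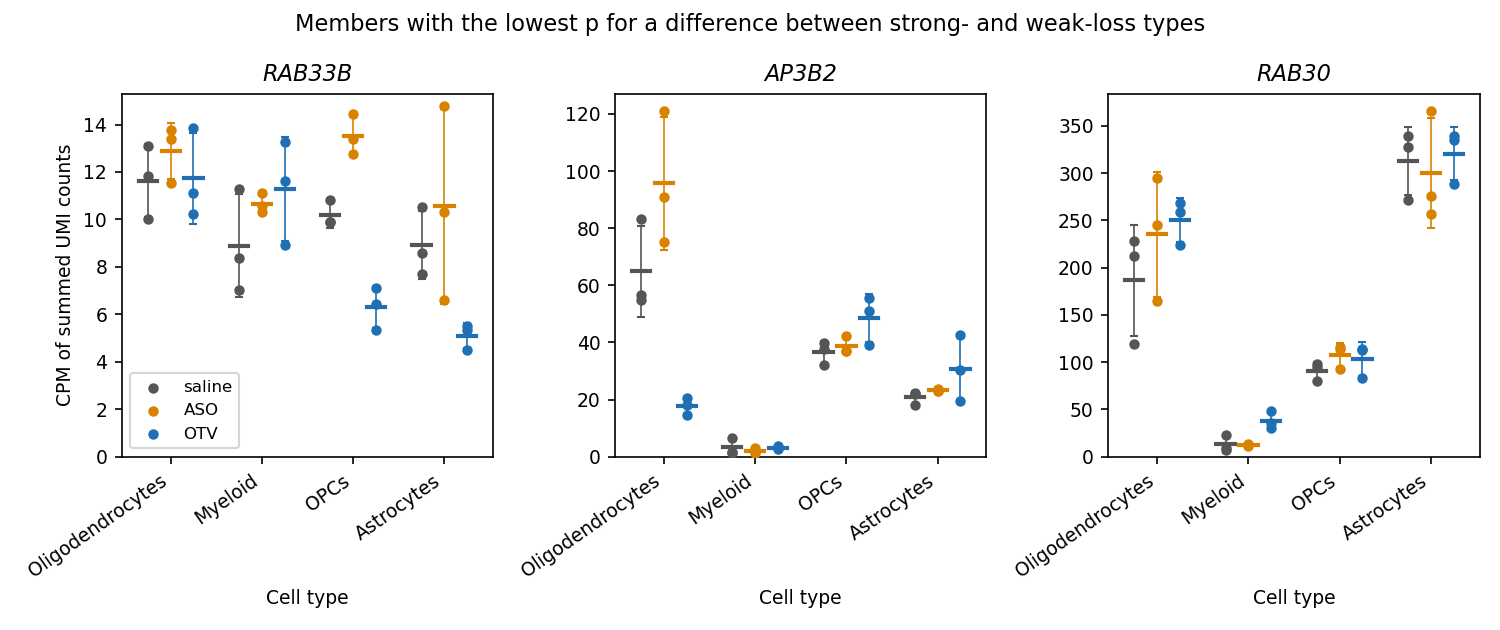
CPM of summed UMI counts in each animal for RAB33B, AP3B2 and RAB30 in oligodendrocytes and myeloid nuclei (strong MALAT1 loss) and OPCs and astrocytes (weak loss). Points are animals, thick lines means and error bars SD (n = 3). RAB33B after OTV is lower in the 2 right-hand types only, AP3B2 after OTV drops to 14.6 to 20.6 CPM in oligodendrocytes only, and RAB30 after OTV exceeds saline in myeloid nuclei without overlap.

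ASO against saline gave no called member. By edgeR 0 of 142 members in oligodendrocytes, 0 of 124 in myeloid nuclei, 0 of 135 in OPCs, 0 of 122 in astrocytes and 0 of 106 in neurons passed, beside 0.394%, 0.197%, 0.262%, 0.0147% and 0.0% of all genes. At an unadjusted p under 0.05 there were 15, 12, 12, 2 and 3 members, beside 11.9%, 10.3%, 9.61%, 6.1% and 2.47% of all genes, and the DESeq2 Wald test called 5, 1, 2, 0 and 0. Over all nuclei edgeR called 0 of 143 members, beside 0.032% of all genes, with 12 at an unadjusted p under 0.05 (beside 9.51%), and the Wald test called 3. The share of all genes called by the Wald test is not given here, so its counts cannot be read as particular to the members. In oligodendrocytes every ASO animal lay above every saline animal for 20 of the 142 members and below for 9, beside 11.6% and 7.49% of all genes. CHMP3, an ESCRT-III subunit, stood at 42.1, 46.2 and 45.2 CPM in saline oligodendrocytes, 62.5, 72.8 and 65.5 in ASO and 47.6, 47.9 and 48.7 in OTV. The ASO animals lay above all others, with a log2 fold change of 0.55 (SE 0.10, edgeR adjusted p = 0.0645; DESeq2 adjusted p = 0.000277). SNX31 stood at 152, 55.6 and 51.3 CPM in saline oligodendrocytes, 5.46, 15.0 and 21.7 in ASO and 21.6, 31.8 and 35.1 in OTV. Both treated groups lay below saline, with a log2 fold change of -2.67 for ASO (SE 0.57, edgeR adjusted p = 0.0971; DESeq2 adjusted p = 8.3e-05) and -1.52 for OTV (SE 0.55, edgeR adjusted p = 0.0846). RAB27A, a Rab of exosome and granule secretion, stood at 23.4, 18.5 and 17.9 CPM in saline OPCs, 7.55, 7.43 and 13.6 in ASO and 16.3, 24.0 and 20.3 in OTV, a log2 fold change of -1.12 for ASO (SE 0.26, edgeR adjusted p = 0.129; DESeq2 adjusted p = 0.0186). By edgeR it passed with no filter (adjusted p = 0.0442) and without ASO replicate 3 (0.0462). RAB6B, a Golgi Rab named after its values were seen, stood at 28.8, 46.1 and 27.9 CPM in saline myeloid nuclei, 12.4, 1.06 and 3.07 in ASO and 50.3, 42.1 and 21.2 in OTV. The ASO animals lay below all others, with a log2 fold change of -2.72 (SE 0.68, edgeR adjusted p = 0.204; DESeq2 adjusted p = 0.00256). Without ASO replicate 1, the highest of its group, RAB6B was called by edgeR at -4.15 (SE 0.53, adjusted p = 0.0217). The strong-against-weak comparison of ASO called 0 of 136 members by edgeR, with 10 at an unadjusted p under 0.05, beside 0.16% and 8.65% of all genes at these levels.

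OTV was also compared with ASO directly. In oligodendrocytes 20 were higher and 7 lower (11.2% and 15.1% of all genes), in myeloid nuclei 12 and 14 (9.42% and 11.1%), in OPCs 15 and 8 (12.7% and 14.4%) and in astrocytes 13 and 3 (9.51% and 12.5%). Over all nuclei there were 12 and 2 (6.83% and 11.1%) and in neurons 1 and 0 (2.04% and 3.19%). This comparison shares its OTV animals with the one against saline and sets 2 whole treatments side by side, which differ in route, dose number and carrier. AP3D1 was 1.27, 1.25, 1.39 and 1.67 higher on the log2 scale in oligodendrocytes, myeloid nuclei, OPCs and astrocytes, and VPS16, at 1.70, 2.40, 1.89 and 1.38, was called in all 4. RAB40C was higher by 0.84, 0.97, 0.96 and 1.12. AP3B2 was 2.33 lower in oligodendrocytes (SE 0.23, edgeR adjusted p = 0.000285), and RAB33B was 0.99 lower in OPCs (SE 0.21, edgeR adjusted p = 0.00576).

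In the neuron class OTV against saline called 2 of 106 members higher and 2 lower (1.89% each, beside 2.52% and 4.3% of all genes). AP3D1 stood at 59.9, 82.9 and 56.0 CPM in saline and 169, 219 and 284 in OTV, a log2 fold change of 1.70 (SE 0.31, edgeR adjusted p = 0.0193). RAB37 rose from 1.97, 3.19 and 1.35 to 41.5, 13.1 and 50.3 CPM, and RAB27B fell from 95.5, 73.4 and 86.2 to 12.4, 39.9 and 27.6. RAB11FIP2 fell by 1.03 on the log2 scale. All 4 calls were lost with the term for the regional score, and each was lost without saline replicate 1 or 3. The thalamic marker, PDE10A and FLT1 values above differed widely between animals in this class, and the part of its makeup in these 4 results was not tested.

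A list of 69 further endosomal genes outside the name patterns, such as clathrin chains, RAB5 effectors and the alpha subunits of AP-2, had 62 members among the features. In oligodendrocytes 13 of 62 were called higher and 1 lower after OTV, in OPCs 7 and 3 of 61, in astrocytes 6 and 1 of 61 and in myeloid nuclei 5 and 2 of 62. All genes tested gave 7.52% and 11.7%, 10.2% and 11.9%, 6.27% and 9.12%, and 4.76% and 7.26% in that order. Every listed gene has a symbol, unlike all genes tested, so these shares are not on equal terms. The median log2 fold change of the listed genes was 0.20, 0.10, 0.17 and -0.03 in that order. AP2A1 and AP2A2, the 2 alpha subunits of the clathrin adaptor at the plasma membrane, rose by 0.86 and 0.82 in oligodendrocytes (SE 0.10 and 0.09, edgeR adjusted p = 0.000906 and 0.000638), where none of the other AP-2 subunits was called. RILPL1, a partner of RAB8 and RAB10 at the centrosome, rose in all 4 types by 0.61 to 0.92. STX12, a SNARE of recycling endosomes, fell in all 4 types by 0.58 to 0.78. Whether the calls of this list held under the other fits is not given here. TFRC, the receptor that OTV binds, stood at 13.6, 14.3 and 12.9 CPM in saline oligodendrocytes and 15.7, 16.8 and 18.3 in OTV, and was not called (log2 fold change 0.36, SE 0.13, edgeR adjusted p = 0.0903). In myeloid nuclei TFRC stood at 27.7, 27.2 and 29.2 against 27.0, 29.5 and 45.1 CPM, which overlapped. In astrocytes it stood at 23.4, 27.8 and 19.2 CPM in saline, 29.3, 30.2 and 29.0 in ASO and 34.6, 29.3 and 35.3 in OTV. Both treated groups lay above saline there, and the OTV change was not called (log2 fold change 0.54, SE 0.19, edgeR adjusted p = 0.0866).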

How the data were processed

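Single-nucleus RNA was measured by 10x sequencing in thalamus of 9 monkeys, 3 per group. The authors deposited raw UMI counts per gene and nucleus, with their cell types and clusters. The doublet score in the deposited nucleus table is a fraction, used only to check that every nucleus was already marked a singlet (highest score 0.865), and no further nucleus was removed. Cell Ranger 6.1.2, Seurat 4 and GRCh38.p13 appear in the submitters' processing notes, although the deposited features carry cynomolgus identifiers. The sources used here do not give how reads were assigned to genes or strands.

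Counts were summed per animal and cell type, from 1074 to 10600 nuclei per animal in oligodendrocytes, 337 to 934 in OPCs, 370 to 1103 in myeloid nuclei and 138 to 961 in astrocytes. Sums were fitted with edgeR 4.0.16 in R 4.3.3 (TMM, filterByExpr by group, robust quasi-likelihood test, all 9 animals) with Benjamini-Hochberg adjustment over all genes tested in a type. The strong-against-weak fit took the 4 types together with the animal as a block. DESeq2 1.42.0 was an alternative, and its counts of members stand without the share of all genes it called. Other alternatives were RLE size factors, no filter, only 6 animals, each animal left out, a regional score term, thinned sums and the largest cluster of each type. The fits were tested on simulated data in which every gene had the same spread between animals. For OTV against saline, 54.3% of 2-fold changes were recovered in oligodendrocytes and 38.9% in myeloid nuclei. Of 1.5-fold changes, 1.89% and 5.71% were recovered. The strong-against-weak fit recovered 57.5% of 2-fold changes. The absence of a call therefore does not show that a gene was unchanged. The p-values measure the spread between animals only.

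The members, lists and alternatives were chosen with earlier results of these data known. Genes were named by rule: the 3 members leading each type at 20 CPM or more, those called alike in 3 of 4 types, the 4 lowest p in the strong-against-weak fit, and the largest change per type and direction. Other genes named by role, and those named for ASO, were chosen after their values were seen. Gene names are those of the features. RefSeq's table (T2T-MFA8v1.1) listed 145 of the 147 symbols.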

Additional observations from a re-analysis of the deposited data

Results flagged for a closer look

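For EHD2, RAB33A and VPS41 every OTV animal lay above every saline animal in 1 cell type and below every saline animal in another. Of all genes tested, 14.7% lay above and 20.5% below in this way in oligodendrocytes and 16.4% and 22.3% in OPCs. The share of all genes that lay apart in opposite directions in 2 types was not counted, so 3 members cannot be called many. None of these differences was called by edgeR in its own type (lowest adjusted p = 0.0716), and the difference between the 2 types was not tested directly. EHD2, an ATPase that stabilises caveolae, had a mean 3.39 CPM higher in OTV than in saline oligodendrocytes (saline 4.06, 5.67 and 1.88 CPM, OTV 6.44, 5.86 and 9.46) and a difference of -5.43 CPM in OPCs (13.5, 14.4 and 11.3 against 7.70, 9.33 and 5.88). ASO oligodendrocytes, at 7.23 to 10.2 CPM of EHD2, also lay above saline. RAB33A, a Golgi-associated Rab, had a difference of 4.72 CPM in OPCs (9.33, 9.11 and 6.60 against 12.9, 15.1 and 11.2) and -9.39 CPM in oligodendrocytes (33.5, 27.4 and 31.3 against 21.9, 24.6 and 17.5). ASO OPCs held 22.0, 18.9 and 11 CPM of RAB33A, all above saline. The 7 oligodendrocyte markers in OPC nuclei were also higher in both treated groups (846 to 1128 CPM in ASO and 769 to 1112 in OTV, against 407 to 660 in saline), and their part in the RAB33A values was not tested. VPS41, a HOPS subunit, had a difference of 9.15 CPM in oligodendrocytes, where the lowest OTV animal (110) barely exceeded the highest saline animal (109), and -5.50 CPM in OPCs. The test of the types of strong against weak MALAT1 loss, which averages these types with myeloid nuclei and astrocytes, gave edgeR adjusted p = 0.484 for EHD2, 0.454 for RAB33A and 0.909 for VPS41.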

How the results depend on the processing

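No named call reversed under an alternative that fitted its gene. RAB3D in myeloid nuclei was not fitted with 6 animals, and genes of few UMIs, such as RAB26 in oligodendrocytes and RAB11FIP1 in myeloid nuclei, were not fitted after thinning. Of the values fitted, 1140 for named calls kept their side of the threshold and 293 lost it. Depth limits RAB11FIP1, RAB3D, VPS16 and AP3B2 in myeloid nuclei, with as few as 2 to 4 UMIs in some animals. No paired analysis was possible because the labels give no number that links an animal of one group to an animal of another.

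Members called for OTV against saline, 12 in all nuclei, 18 in oligodendrocytes, 14 in myeloid nuclei, 25 in OPCs, 12 in astrocytes and 4 in neurons, moved by over 1.5 times as follows. With only the 6 animals compared there were 5 in all nuclei, 11 in oligodendrocytes and 6 in myeloid nuclei. The DESeq2 Wald test gave 24 in all nuclei, 28 in oligodendrocytes and 7 in neurons. The regional score term gave 6 in all nuclei, 7 in oligodendrocytes, 7 in astrocytes and 0 in neurons. Thinning gave 10 in oligodendrocytes, 6 in myeloid nuclei and 0 in neurons, and the largest cluster alone 9 in oligodendrocytes and 5 in myeloid nuclei. For ASO against saline, 0 by edgeR became 3, 5, 1 and 2 in all nuclei, oligodendrocytes, myeloid nuclei and OPCs by the Wald test and 1 in OPCs with no filter. For OTV against ASO the Wald test gave 26 in all nuclei and 3 in neurons, the largest cluster 17 in oligodendrocytes and 16 in myeloid nuclei, and astrocytes fell to 10 with 6 animals, 10 with no filter and 9 after thinning. Neurons had 0 there with 6 animals, with the score term and after thinning. The strong-against-weak test gave 1 for oligodendrocytes against astrocytes alone, and 26 members were highest in OPCs when neurons were left out of the ranking. The cause was not tested.

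Leaving out 1 animal gave 5 to 10 members for OTV against saline in all nuclei, 8 to 16 in oligodendrocytes, 3 to 17 in myeloid nuclei, 14 to 26 in OPCs, 4 to 10 in astrocytes and 0 to 5 in neurons. The lowest counts came without OTV replicate 3 in oligodendrocytes (8), myeloid nuclei (3) and astrocytes (4) and without OTV replicate 2 in OPCs (14). Without saline replicate 1 they were 8, 4, 5 and 16 in oligodendrocytes, myeloid nuclei, astrocytes and OPCs, and without saline replicate 2 they were 8, 5, 5 and 15. For OTV against ASO the ranges were 7 to 21, 18 to 28, 14 to 27, 16 to 29, 5 to 15 and 0 to 1 in the same order, and for ASO against saline 0 to 1 in myeloid nuclei and OPCs and 0 to 0 elsewhere. The strong-against-weak test gave 0 to 2 for OTV and 0 to 0 for ASO. Leaving out 1 animal, MALAT1 after OTV lay at 53.6 to 59.3% of saline in all nuclei, 49.3 to 56.3% in oligodendrocytes, 54.4 to 57.4% in myeloid nuclei, 65.1 to 76.8% in OPCs, 61.3 to 77.5% in astrocytes and 41.8 to 48.0% in neurons. Members highest in each type numbered 67 to 73 in myeloid nuclei, 22 to 28 in neurons, 24 to 25 in oligodendrocytes, 12 to 14 in astrocytes and 14 to 17 in OPCs without 1 saline animal.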

Other observations

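Of the 147 genes, 4 lie near LTBP3, a neighbour of MALAT1, within 50 protein-coding genes on either side in RefSeq's gene order (T2T-MFA8v1.1, chromosome 14): SNX32 with 13 coding genes between, SNX15 with 21, EHD1 with 28 and RAB1B with 33. The window was chosen after the values were seen. In OPCs 3 of these 4 were called higher after OTV by edgeR (SNX32, EHD1 and RAB1B), and SNX15, a sorting nexin that binds PDGF receptors and clathrin, had a log2 fold change of -0.75 (edgeR adjusted p = 0.101). In oligodendrocytes and astrocytes 1 of the 4 was called higher, and in myeloid nuclei and over all nuclei 0 of 4 (0 and 2 at an unadjusted p under 0.05, and 0 and 1 by the DESeq2 Wald test). Of all genes tested in the window, 11 of 47 in OPCs (23.4%), 12 of 62 in oligodendrocytes (19.4%), 7 of 46 in astrocytes (15.2%) and 4 of 46 in myeloid nuclei (8.70%) were called higher, beside 10.2%, 7.52%, 6.27% and 4.76% of all genes in these types. In that order 1, 1, 2 and 0 genes of the window were called lower. The window holds only protein-coding genes with a symbol, unlike all genes tested, so these shares are not on equal terms. For ASO against saline edgeR called 0 genes of the window in each of these 4 types, with 4, 4, 3 and 3 at an unadjusted p under 0.05 and 1, 1, 1 and 0 by the Wald test in the same order.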
